A study of Schizosaccharomyces pombe with 9 samples.

Results

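The 36 genes described here encode parts of the fission yeast division machinery, in 3 groups. There were 19 genes of the contractile ring, 4 of the septins of growing cells and 13 of the septation initiation network (SIN). Each was found by its lower-case *S. pombe* symbol in the array annotation, and each had 1 probe set, so that 36 of the 2899 named *S. pombe* genes on the array are covered. The study asked how the expression profiles of 8 deletions sensitive to DNA damage differ from that of wild type (WT). RNA of untreated cells in exponential growth was hybridised to Affymetrix Yeast Genome 2.0 arrays, with 1 array per genotype and 9 in all. The deleted genes were *sgf73*, *meu29*, *pab1*, *sec65*, *ash2*, *SPAC3F10.17*, *SPAC27D7.08c* and *SPBC2A9.02*, and per the study's methods the deletions came from a haploid library. The WT array is labelled as the diploid strain SP286 with the genotype *h+ ade6-M210 ura4-D18 leu1-32*. Other markers of the deletion strains are not known from the labels, so that ploidy, strain background and deletion cannot be told apart in a ratio to WT. By the cytometry of the study, *sgf73*Δ and *meu29*Δ belong to the W4C class, *pab1*Δ and *sec65*Δ to S4C, *ash2*Δ and *SPAC3F10.17*Δ to 2C, and the 1C class holds *SPBC2A9.02*Δ and *SPAC27D7.08c*Δ.

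Fission yeast divides in the middle of a rod-shaped cell. The anillin-like protein Mid1 marks the division site in nodes on the cortex, where myosin, the IQGAP Rng2 and the formin Cdc12 gather actin filaments into a ring, and F-BAR proteins tie the ring to the membrane. Septins form a separate ring that takes part in the separation of the daughter cells. The SIN is a kinase cascade on the spindle pole body, switched on by the GTPase Spg1, that starts ring constriction and septum synthesis once chromosomes have been segregated. Strains without SIN activity replicate and divide their nuclei without septation, and strains in which it cannot be switched off form repeated septa.

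Each genotype was measured once, so that no test was made and no p-value is given. A difference is described by its ratio to WT, and is called past 1.5-fold at a ratio of at least 1.5 or at most the inverse, and past 2-fold likewise. All 8 ratios of a gene share the WT array. An array averages over cells at all stages, so that fewer cells in division and less of a transcript per cell cannot be told apart. The deposited values were log2 signals, and signals below are on the linear scale. Background, taken from the 2593 *S. cerevisiae* probe sets as their 95th percentile, was a signal of 36.2 to 40.2, and all 36 genes lay above it on all 9 arrays. The deleted transcript was 33.8 times lower than WT in *sgf73*Δ, 12.6 times in *meu29*Δ and at background in *ash2*Δ, at least 23.0 times lower. The remaining 3 deleted genes were not analysed here. *pab1* stood at 0.609 of WT in the *pab1*Δ-labelled array and *sec65* at 0.679 in the *sec65*Δ-labelled array, and so these are named by their labels. These were also the closest pair of the 9 arrays, and the largest difference of a member between them was 1.20-fold.

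Most ratios of the division genes lay near 1. Of the 288 ratios of the 36 genes, 237 (82.3%) lay within 1.25-fold of WT, beside 74.3% of the ratios of all named genes. Only 1 ratio passed 2-fold, that of *fic1* in *sgf73*Δ, beside 2.92% of all ratios on the arrays. Past 1.5-fold were 11 ratios, or 3.82%, beside 9.5% for all named genes. The 6 higher ones (2.08%) stood beside 4.95% and the 5 lower ones (1.74%) beside 4.55%. Outside the middle 95% of the ratios of its own array lay 4 of 288 (1.39%), beside 5.02%, namely *fic1* in *sgf73*Δ, *meu29*Δ and *ash2*Δ and *sid1* in *SPBC2A9.02*Δ. The 11 ratios past 1.5-fold belonged to 7 genes, namely *fic1* and *cyk3* of the ring and *sid4*, *etd1*, *plo1*, *cdc7* and *sid1* of the SIN, a share of 19.4% of the genes beside 33.7% of all named genes. *sgf73*Δ held 5 of the 11 and *meu29*Δ held 3, and these are also the arrays in which the most genes of any kind passed 1.5-fold, 18.4% and 16.2%. *ash2*Δ, *SPAC3F10.17*Δ and *SPBC2A9.02*Δ held 1 each, where 8.54%, 11.6% and 6.21% of all genes did. No member passed in the *pab1*Δ-labelled array (4.39% of all genes), the *sec65*Δ-labelled array (3.9%) or *SPAC27D7.08c*Δ (6.72%).

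**Figure D1:**
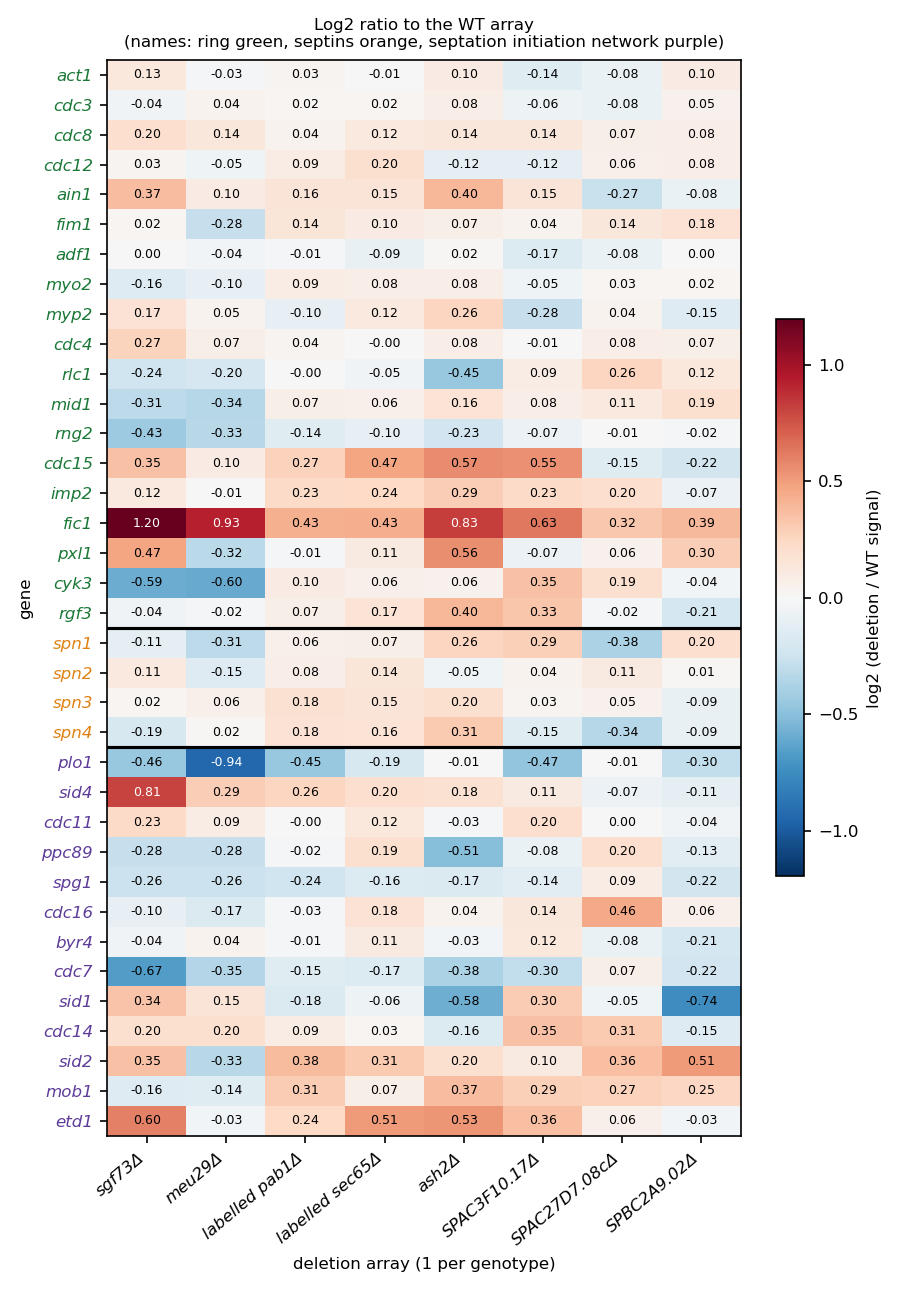
Log2 ratio of each of the 36 genes (rows) in each deletion array (columns) to the WT array, with ring genes above, septins in the middle and SIN genes below; red is higher and blue lower than WT. The row of *fic1* is red in all 8 columns, from 0.32 to 1.20, and the row of *plo1* is below 0 in all 8, down to -0.94, though *ash2*Δ moves to 0.020 with median scaling.

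Medians of the groups stayed close to 0. The ring median log2 ratio ran from -0.027 in *meu29*Δ to 0.10 in *ash2*Δ, and the SIN median from -0.14 in *meu29*Δ to 0.12 in *SPAC3F10.17*Δ. The 4 septins had the widest spread of medians, from -0.14 in *SPAC27D7.08c*Δ to 0.23 in *ash2*Δ. Over all named genes the median was -0.030 to 0.072.

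Genes of actin and its binding proteins included those with the narrowest ranges of the 36. The 7 genes of this role had ratios of 0.825 to 1.32 over the 8 deletions, and 0 of 56 ratios passed 1.5-fold, beside 9.5% of all ratios. *act1* (SPBC32H8.12c), the actin gene and the internal control of the study's RT-qPCR, had signals of 19084 in *sgf73*Δ, 17152 in *meu29*Δ, 17898 in the *pab1*Δ-labelled array, 17418 in the *sec65*Δ-labelled array, 18755 in *ash2*Δ, 16563 in *SPAC27D7.08c*Δ, 18728 in *SPBC2A9.02*Δ and 15847 in *SPAC3F10.17*Δ, against 17481 in WT. Its ratios were thus 0.907 to 1.09, with WT the fifth of 9. *cdc3*, encoding profilin, ranged over 1.11-fold among the deletions, *cdc8*, encoding tropomyosin, over 1.11-fold and *adf1*, encoding cofilin, over 1.13-fold, which placed them at the percentiles of 2.01, 2.18 and 3.68 of the ranges of all genes. *cdc8* lay above WT in all 8 deletions, though only by ratios of 1.03 to 1.15. *cdc12*, the formin gene, stood at 0.922 to 1.14 and *fim1*, the fimbrin gene, at 0.825 in *meu29*Δ and 1.01 to 1.13 elsewhere.

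*ain1* (SPAC15A10.08), encoding the actin crosslinker alpha-actinin, varied most in this role. Its signal was 1816 in *sgf73*Δ, 1501 in *meu29*Δ, 1568 in the *pab1*Δ-labelled array, 1562 in the *sec65*Δ-labelled array, 1852 in *ash2*Δ, 1168 in *SPAC27D7.08c*Δ, 1329.6 in *SPBC2A9.02*Δ and 1563 in *SPAC3F10.17*Δ, against 1404 in WT. Both 1C deletions lay below WT and the other 6 above it, at ratios up to 1.32.

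Myosin genes also stayed within 1.5-fold, with 0 of 32 ratios past it, beside 9.5% of all ratios. *myo2* (SPCC645.05c), the heavy chain that is essential for the ring, had ratios of 0.897 to 1.06, and *myp2*, the second heavy chain, 0.824 to 1.19. The essential light chain gene *cdc4* stood at 0.994 to 1.21, highest in *sgf73*Δ. The regulatory light chain gene *rlc1* (SPAC926.03) departed from them, with its lowest ratio of 0.732 in *ash2*Δ and its highest of 1.19 in *SPAC27D7.08c*Δ. In *ash2*Δ, *rlc1* was thus at its lowest ratio while *myp2* was at its highest.

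Scaffolds between the ring and the membrane held all 6 ring ratios past 1.5-fold. These were 6 of the 64 ratios of this role, beside 9.5% of all ratios. Of the 8 genes in the role, only *fic1* and *cyk3* held these 6 ratios. Of these, *cyk3* in *sgf73*Δ and *meu29*Δ no longer passed with a pseudocount of 50, at log2 ratios of -0.56 and -0.58, nor *fic1* in *SPAC3F10.17*Δ with median scaling or quantile normalization, at 0.56 and 0.57. Against the median of the remaining 7 deletions, *fic1* passed in *sgf73*Δ alone. *fic1* (SPBC83.18c) encodes a C2 domain protein that binds the F-BAR proteins Cdc15 and Imp2, and the study lists it among the cytokinesis genes it selected from these arrays, so that its height is no independent evidence. Its signal was 2433 in *sgf73*Δ, 2020.2 in *meu29*Δ, 1429 in the *pab1*Δ-labelled array, 1431 in the *sec65*Δ-labelled array, 1886 in *ash2*Δ, 1329 in *SPAC27D7.08c*Δ, 1387 in *SPBC2A9.02*Δ and 1648 in *SPAC3F10.17*Δ, against 1062 in WT. WT was the lowest of the 9 arrays, as it was for 8.95% of all genes. The ratio of *fic1* was 2.29 in *sgf73*Δ, 1.90 in *meu29*Δ, 1.55 in *SPAC3F10.17*Δ, 1.78 in *ash2*Δ, and 1.25 to 1.35 in the other 4 arrays. Among all genes of an array, *fic1* stood at the percentile of 98.2 in *sgf73*Δ, 97.9 in *meu29*Δ and 98.6 in *ash2*Δ. Among the deletions alone, without WT, the highest signal of *fic1* exceeded the lowest 1.83-fold.

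The F-BAR genes themselves stood nearer to WT. *cdc15* (SPAC20G8.05c) had signals of 1399 in *sgf73*Δ, 1170.5 in *meu29*Δ, 1325 in the *pab1*Δ-labelled array, 1519.9 in the *sec65*Δ-labelled array, 1621 in *ash2*Δ, 989 in *SPAC27D7.08c*Δ, 942 in *SPBC2A9.02*Δ and 1603 in *SPAC3F10.17*Δ, against 1095 in WT. As with *ain1*, the 1C deletions were below WT, at 0.903 and 0.860, and the other 6 above it, up to 1.46 in *SPAC3F10.17*Δ and 1.48 in *ash2*Δ. *imp2*, the second F-BAR gene, had ratios of 0.956 to 1.22. *pxl1* (SPBC4F6.12), encoding a paxillin-like protein that stabilises the ring, had signals of 1246 in *sgf73*Δ, 721 in *meu29*Δ, 894 in the *pab1*Δ-labelled array, 969.8 in the *sec65*Δ-labelled array, 1325 in *ash2*Δ, 936 in *SPAC27D7.08c*Δ, 1106 in *SPBC2A9.02*Δ and 856 in *SPAC3F10.17*Δ, against 901 in WT. *pxl1* set the W4C deletions apart, with 1.38 times its WT level in *sgf73*Δ and 0.800 times in *meu29*Δ, 1.73-fold apart.

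*cyk3*, *mid1* and *rng2* were lowest in *sgf73*Δ and *meu29*Δ. *cyk3* (SPAC9G1.06c), whose product promotes septum formation at the ring, had signals of 912 in *sgf73*Δ, 904 in *meu29*Δ, 1469 in the *pab1*Δ-labelled array, 1429.8 in the *sec65*Δ-labelled array, 1426 in *ash2*Δ, 1565 in *SPAC27D7.08c*Δ, 1339 in *SPBC2A9.02*Δ and 1747 in *SPAC3F10.17*Δ, against 1372 in WT. Its ratios in the W4C pair were 0.664 and 0.659, while the other 6 deletions and WT did not overlap with that pair. *mid1* (SPCC4B3.15) had signals of 1397 in *meu29*Δ, 1426 in *sgf73*Δ and 1846 to 2021 in the other 6 deletions, against 1773 in WT. *rng2* (SPAC4F8.13c) was below WT in all 8 deletions and highest in WT, at 0.741 in *sgf73*Δ, 0.796 in *meu29*Δ and 0.855 to 0.996 in the other 6. *rgf3* (SPCC645.06c), which acts in septum synthesis, was highest in *ash2*Δ, at 1.32, and *SPAC3F10.17*Δ, at 1.25. It lies next to *myo2* in the genome, with 0 protein-coding genes between them, and *myo2* stood at 1.06 and 0.966 in the same arrays.

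**Figure D2:**
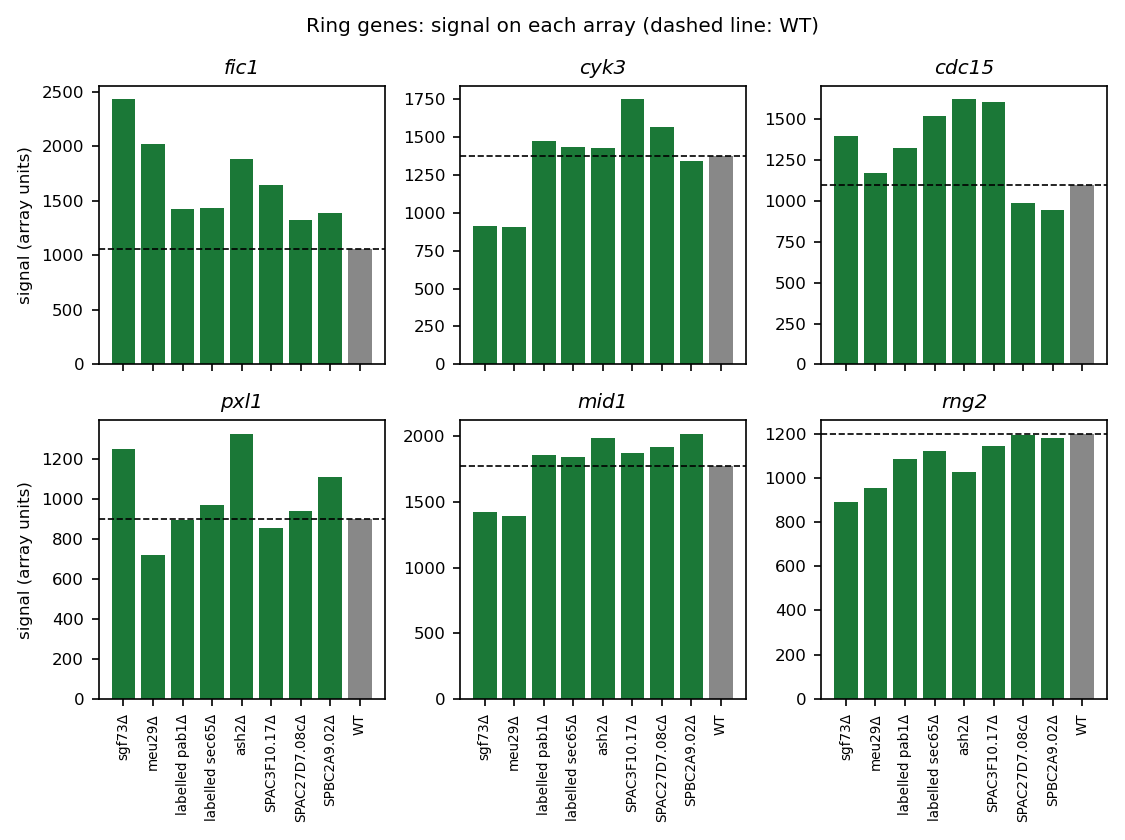
Signal (linear array units, from 0) of 6 ring genes on each of the 8 deletion arrays (green) and the WT array (grey), with the WT level as a dashed line. *fic1* lies above the line in all 8 deletions, *cyk3* and *mid1* are lowest in *sgf73*Δ and *meu29*Δ, and *cdc15* falls below the line only in the 2 deletions of the 1C class.

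Septins of growing cells, which assemble in one complex, stayed within 1.5-fold of WT in all 32 ratios, from 0.771 to 1.24. Of all ratios on the arrays, 9.5% passed 1.5-fold. *spn2* and *spn3* ranged only over 1.23-fold and 1.22-fold among the deletions. *spn1* (SPAC4F10.11) had signals of 1544 in *sgf73*Δ, 1348 in *meu29*Δ, 1742 in the *pab1*Δ-labelled array, 1759.8 in the *sec65*Δ-labelled array, 1995 in *ash2*Δ, 1288 in *SPAC27D7.08c*Δ, 1925 in *SPBC2A9.02*Δ and 2042 in *SPAC3F10.17*Δ, against 1672 in WT. *spn4* (SPAC9G1.11c) had signals of 1528 in *sgf73*Δ, 1762 in *meu29*Δ, 1968 in the *pab1*Δ-labelled array, 1945 in the *sec65*Δ-labelled array, 2159 in *ash2*Δ, 1379 in *SPAC27D7.08c*Δ, 1633 in *SPBC2A9.02*Δ and 1574 in *SPAC3F10.17*Δ, against 1741 in WT. Both were lowest in *SPAC27D7.08c*Δ, at ratios of 0.771 and 0.792, where *spn2* and *spn3* stood at 1.08 and 1.04. They parted in *SPAC3F10.17*Δ, where *spn1* was at 1.22 and *spn4* at 0.904.

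The 3 septins of meiosis, which are companions and not members of the list, differed far more. Since the WT signal of *spn6* was no higher than background, only bounds can be given, and it was at least 2.73-fold higher in *meu29*Δ, 3.38-fold in *SPBC2A9.02*Δ, 3.20-fold in *SPAC27D7.08c*Δ and 7.58-fold in *sgf73*Δ. It was at background in *SPAC3F10.17*Δ too, and no ratio is given there. *spn5* ranged from 0.738 times WT in *ash2*Δ to 2.63 in *sgf73*Δ. *spn7*, named to complete the 3, ranged from 0.694 in *SPBC2A9.02*Δ to 1.78 in *sgf73*Δ and lay below WT in 4 deletions. In the same *sgf73*Δ array the 4 septins of growing cells had ratios of 0.877 to 1.08.

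**Figure D3:**
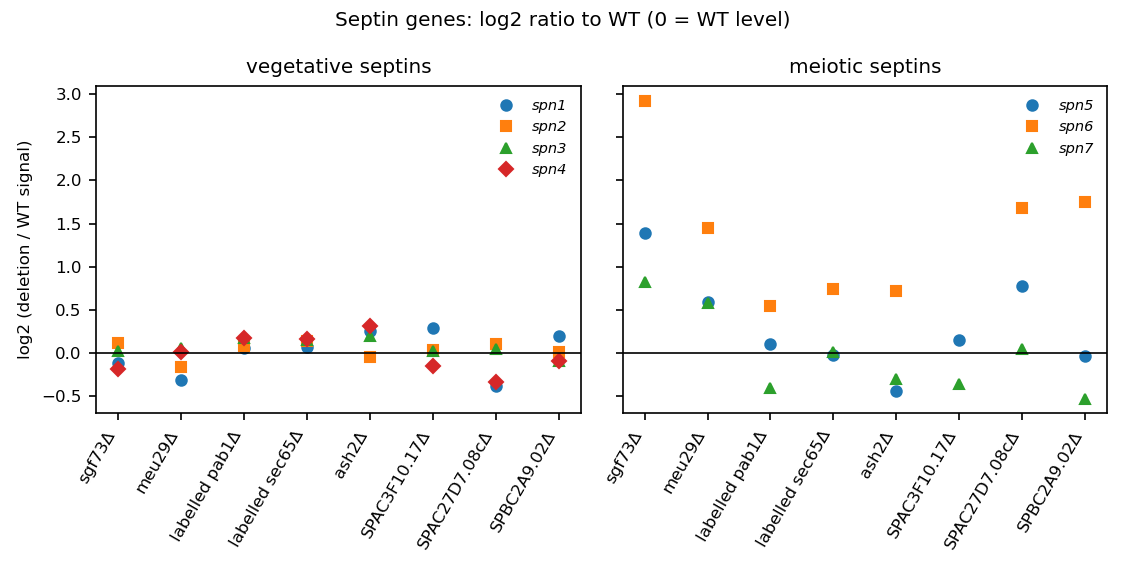
Log2 ratio to WT (0 is the WT level) of the septin genes of growing cells (left) and of meiosis (right) in each deletion array. The septins of growing cells stay between -0.38 and 0.31, while *spn6* reaches 2.92 in *sgf73*Δ; ratios of *spn6* are lower bounds, and its point in *SPAC3F10.17*Δ is left out because both signals were at background.

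SIN genes lay close to the shares of all named genes by some measures and below them by others. Of their 104 ratios, 76.9% were within 1.25-fold of WT, beside 74.3% of all ratios, 83.6% for the ring and 93.8% for the septins. Past 1.5-fold in at least 1 deletion were 5 of the 13 genes (38.5%), beside 33.7% of all named genes. Of the 104 ratios, however, 5 (4.81%) passed 1.5-fold, beside 9.5%, and 0 passed 2-fold, beside 2.92%. Outside the middle 95% of its array lay 1 ratio (0.962%), beside 5.02%. At the spindle pole body, Ppc89 anchors Sid4, which holds Cdc11. *sid4* (SPBC244.01c) had signals of 869.8 in *sgf73*Δ, 610.0 in *meu29*Δ, 595 in the *pab1*Δ-labelled array, 571 in the *sec65*Δ-labelled array, 563 in *ash2*Δ, 474 in *SPAC27D7.08c*Δ, 461 in *SPBC2A9.02*Δ and 537 in *SPAC3F10.17*Δ, against 498 in WT. *sgf73*Δ stood alone at 1.75 times WT, and the next, *meu29*Δ, was at 1.23. *cdc11*, by contrast, had ratios of 0.970 to 1.17, and *ppc89* was lowest in *ash2*Δ, at 0.703, and at 0.826 and 0.824 in *sgf73*Δ and *meu29*Δ. The 3 genes of this scaffold thus stood on both sides of WT in *sgf73*Δ.

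In the GTPase switch, *spg1*, *byr4* and *cdc16* stayed within 1.5-fold of WT, while *etd1* passed it in *sgf73*Δ. *spg1*, encoding the GTPase, stood at 0.836 to 0.910 in 7 deletions and at 1.06 in *SPAC27D7.08c*Δ. Its inhibitor is a GTPase-activating protein of 2 parts, encoded by *byr4*, at 0.864 to 1.09, and *cdc16*, at 0.886 to 1.13 in 7 deletions and 1.37 in *SPAC27D7.08c*Δ. *SPAC27D7.08c*Δ was therefore the array with the highest level of both *spg1* and *cdc16*. *etd1* (SPAC1006.08), which encodes an activator of Spg1, had signals of 1124 in *sgf73*Δ, 724 in *meu29*Δ, 876 in the *pab1*Δ-labelled array, 1055 in the *sec65*Δ-labelled array, 1069 in *ash2*Δ, 773 in *SPAC27D7.08c*Δ, 725 in *SPBC2A9.02*Δ and 951 in *SPAC3F10.17*Δ, against 741 in WT. It reached 1.52 in *sgf73*Δ, a log2 ratio that was 0.57, short of 1.5-fold, with the pseudocount, 1.44 in *ash2*Δ and 1.42 in the *sec65*Δ-labelled array, and was at 0.977 to 1.04 in *meu29*Δ and both 1C deletions.

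The 6 genes of the kinase cascade, partners included, had 3 of 48 ratios past 1.5-fold, all lower. Of all ratios on the arrays, 4.55% were lower past 1.5-fold and 9.5% passed it in either direction. Whether the cascade differs from these shares was not tested. *plo1* (SPAC23C11.16), the polo kinase gene that acts upstream of the SIN, had signals of 559 in *sgf73*Δ, 400.1 in *meu29*Δ, 560.1 in the *pab1*Δ-labelled array, 674 in the *sec65*Δ-labelled array, 764 in *ash2*Δ, 764 in *SPAC27D7.08c*Δ, 625 in *SPBC2A9.02*Δ and 553 in *SPAC3F10.17*Δ, against 768 in WT. WT was the highest of the 9 arrays, as for 5.62% of all genes. The ratio in *meu29*Δ was 0.521, near the 2-fold limit, and it was 0.720 to 0.730 in *SPAC3F10.17*Δ, *sgf73*Δ and the *pab1*Δ-labelled array, while *ash2*Δ and *SPAC27D7.08c*Δ were at 0.995. With median scaling or quantile normalization *ash2*Δ came out above WT, at log2 ratios of 0.020 and 0.027.

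*cdc7* (SPBC21.06c), encoding the kinase that binds active Spg1, had signals of 349.8 in *sgf73*Δ, 435 in *meu29*Δ, 502 in the *pab1*Δ-labelled array, 496 in the *sec65*Δ-labelled array, 427 in *ash2*Δ, 582 in *SPAC27D7.08c*Δ, 476 in *SPBC2A9.02*Δ and 452 in *SPAC3F10.17*Δ, against 556 in WT. It lay below WT in 7 deletions, at 0.629 in *sgf73*Δ and 0.769 in *ash2*Δ. Next in the cascade is Sid1, which acts with its partner Cdc14. *sid1* (SPAC9G1.09) had signals of 410.1 in *sgf73*Δ, 360.0 in *meu29*Δ, 287 in the *pab1*Δ-labelled array, 310.3 in the *sec65*Δ-labelled array, 217 in *ash2*Δ, 313 in *SPAC27D7.08c*Δ, 194 in *SPBC2A9.02*Δ and 399 in *SPAC3F10.17*Δ, against 324 in WT. The lowest were *SPBC2A9.02*Δ, at 0.599, and *ash2*Δ, at 0.669, and the range of 2.11-fold among the deletions was the widest of the 36 genes. The partner gene *cdc14* was lowest in the same arrays, at 0.900 in *SPBC2A9.02*Δ and 0.892 in *ash2*Δ, and at 1.02 to 1.28 in the other 6.

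The last kinase is Sid2 with its coactivator Mob1. *sid2* (SPAC24B11.11c) had signals of 1416 in *sgf73*Δ, 884 in *meu29*Δ, 1443 in the *pab1*Δ-labelled array, 1381 in the *sec65*Δ-labelled array, 1272 in *ash2*Δ, 1429 in *SPAC27D7.08c*Δ, 1582 in *SPBC2A9.02*Δ and 1193 in *SPAC3F10.17*Δ, against 1111 in WT. *meu29*Δ was the sole deletion below WT, at 0.796, and the other 7 stood at 1.07 to 1.42. *mob1* was below WT in *meu29*Δ, at 0.905, and in *sgf73*Δ, at 0.897, and at 1.05 to 1.29 in the other 6. In *meu29*Δ, therefore, *plo1*, *cdc7*, *sid2* and *mob1* were all below WT, while *sid1* was at 1.11 and *cdc14* at 1.15. *pab1* encodes a phosphatase subunit that acts on the SIN, and in the *pab1*Δ-labelled array, where its own transcript was still above background, the 13 genes had ratios from 0.730 for *plo1* to 1.30 for *sid2*. With 4.39% of all genes past 1.5-fold there, the 0 of 13 SIN genes is no result about the SIN.

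**Figure D4:**
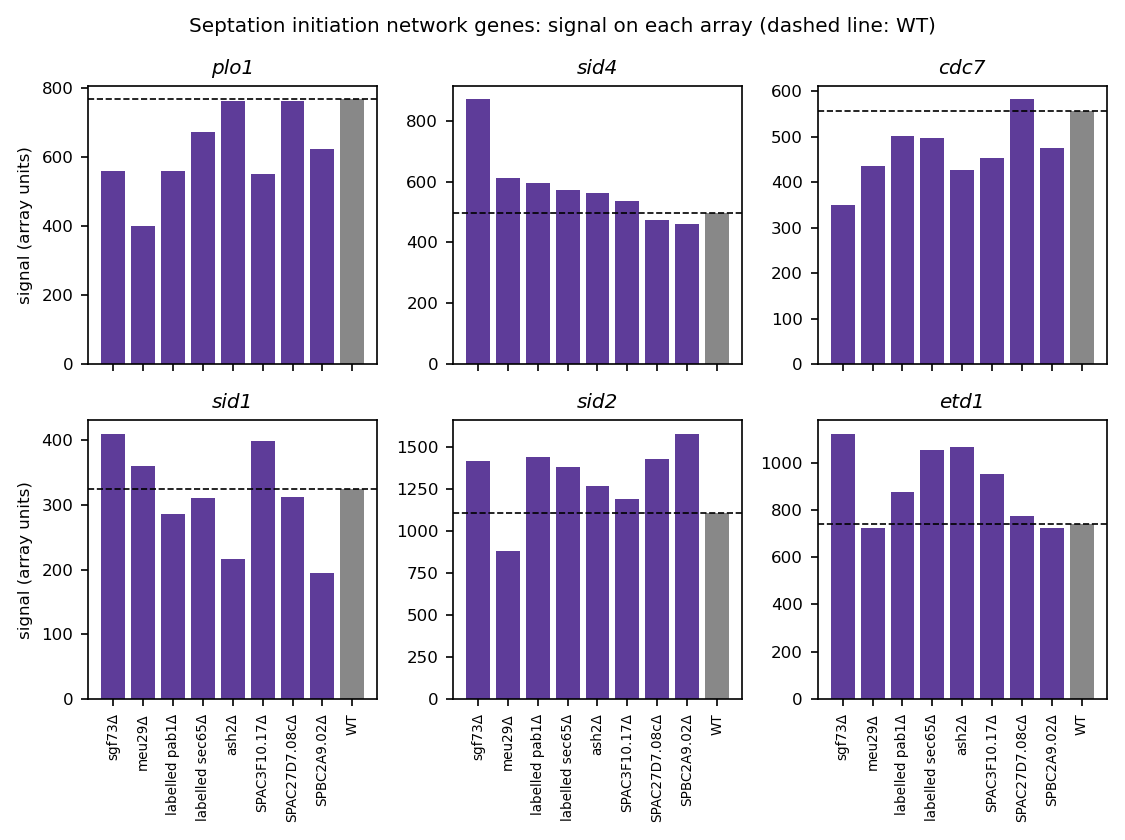
Signal (linear array units, from 0) of 6 SIN genes on each of the 8 deletion arrays (purple) and the WT array (grey), with the WT level as a dashed line. *sid4* is highest in *sgf73*Δ at 869.8, *plo1* lowest in *meu29*Δ at 400.1, and *sid1* lowest in *SPBC2A9.02*Δ at 194.

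The deletions were also set against one another without WT. The highest signal among the 8 deletions exceeded the lowest by a median of 1.45-fold over the 36 genes, beside 1.53-fold over all named genes, and by 1.37-fold in the ring, 1.39-fold in the septins and 1.55-fold in the SIN. A range of 2-fold or more was reached by *sid1* alone, beside 19.4% of all genes, and of 1.5-fold or more by 17 of 36 (47.2%), beside 53.3%. In the ring, 13 of 19 genes had a range below the median of all genes, against 5 of 13 in the SIN. Signals of *sgf73*Δ and *meu29*Δ were both below the other 6 deletions for 8 of 36 genes (22.2%), namely *fim1*, *myo2*, *mid1*, *rng2*, *cyk3*, *spg1*, *cdc16* and *mob1*, beside 12.5% of all genes. They were both above for *fic1* and *sid4* (5.56%), beside 17.0% of all genes. The 1C pair was below the other 6 for *ain1*, *cdc15*, *fic1*, *sid4* and *byr4* (13.9%), beside 14.0%, and above for *rlc1* and *rng2*, beside 8.01%. The 2C pair was above the other 6 for *cdc15*, *rgf3* and *spn1* (8.33%), beside 5.89%, and below for *cdc12*, beside 5.06%. The *pab1*Δ-labelled and *sec65*Δ-labelled arrays, the closest pair of the 9, were both above for *cdc12* and *myo2*, beside 2.81%. They were both below for 0 genes, beside 1.8%. Whether such shares differ from those of all genes was not tested.

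**Figure D5:**
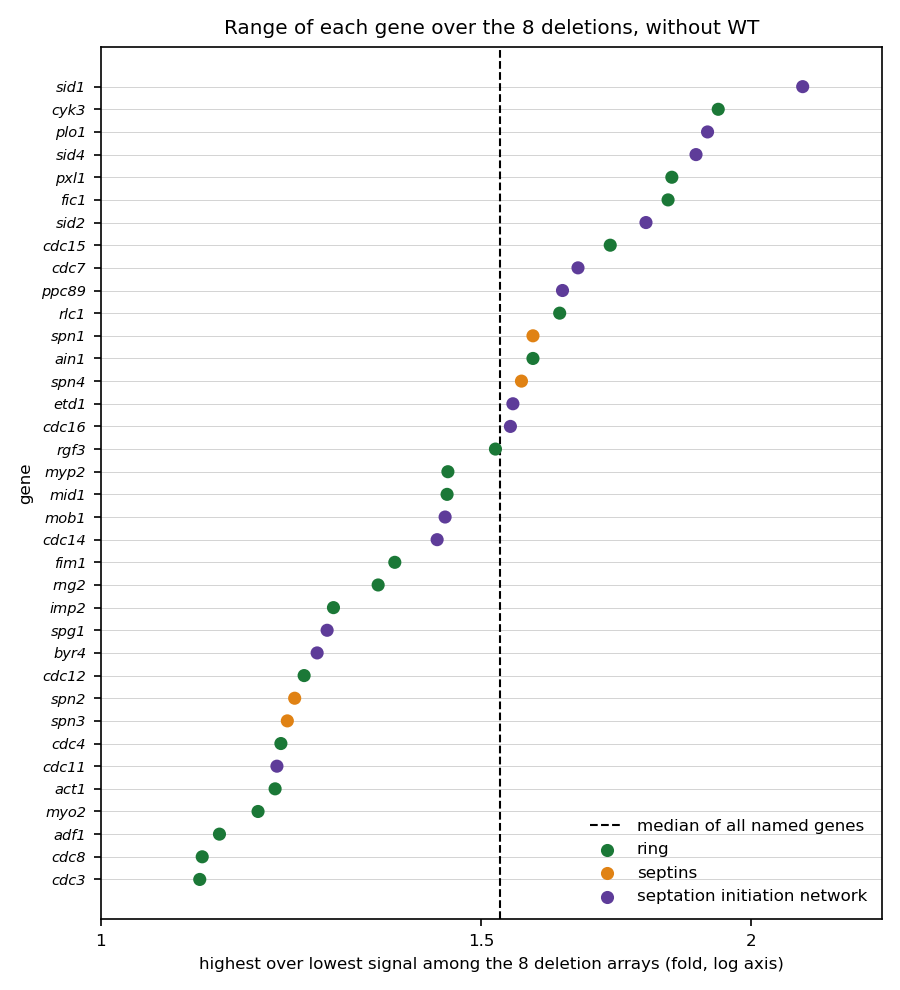
Highest over lowest signal among the 8 deletion arrays (fold, log axis) for each of the 36 genes, coloured by group, with the median of all named genes as a dashed line at 1.53. *sid1* is the only gene past 2-fold, and *cdc3*, *cdc8* and *adf1* are nearest to 1.

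Companion genes of the same processes are given by counts, to be read beside the 4.95% of all ratios that were higher and the 4.55% that were lower past 1.5-fold. Of 23 measured partners of the ring, 8 of 184 ratios (4.35%) passed 1.5-fold, 7 higher and 1 lower, beside 9.5% of all ratios. Those past 2-fold were *rga7*, encoding an F-BAR protein, at 3.09 in *SPAC3F10.17*Δ and 0.944 to 1.23 elsewhere, and *clp1*, the gene of a Cdc14-family phosphatase, at 2.29 in *SPAC3F10.17*Δ. The *clp1* signals, 145 in *SPAC3F10.17*Δ against 63.3 in WT, were low beside a background of up to 40.2. Of 6 partners of the septins, the 3 of meiosis included, 15 of 47 ratios (31.9%) were higher past 1.5-fold and 0 lower. Of these 15, 6 belonged to *spn6*, whose WT signal was no higher than background, and 5 to *mid2*. The product of *mid2* organises the septin ring, and the gene is named here after its values were seen. *mid2* stood above WT in all 8 deletions, at 1.19 to 1.93, and passed 1.5-fold in 5 of them. Of 14 measured partners of the SIN, 0 ratios were higher past 1.5-fold and 5 of 112 (4.46%) lower. They included *zfs1*, encoding an RNA-binding protein of the zinc finger type, at 0.494 in *meu29*Δ and 0.646 to 0.761 in the other 7. WT was the highest array for *zfs1*, and among the deletions alone its signal ranged over 1.54-fold. Septum synthesis genes had negative medians in all 8 deletions, from -0.27 in *sgf73*Δ to -0.027 in *SPAC27D7.08c*Δ, with 1 of 80 ratios (1.25%) higher and 3 (3.75%) lower past 1.5-fold. For 4 of these 10 genes WT was the highest of the 9 arrays, as for 5.62% of all genes. All 8 medians share that array. In the 4 measured genes of cell separation, 25 of 32 ratios (78.1%) were higher past 1.5-fold and 0 lower. For all 4 genes WT was the lowest of the 9 arrays, as for 8.95% of all genes, and all 32 ratios share that array. *adg1* stood at 1.52 to 3.73 and *adg2* at 1.33 to 3.67 over the 8 deletions. *eng1*, encoding the glucanase that opens the septum, stood at 6.25 in the *sec65*Δ-labelled array and 1.13 in *SPAC27D7.08c*Δ. Among 6 genes of the mitotic wave of transcription and its regulators, 11 of 48 ratios (22.9%) were higher and 5 (10.4%) lower. *slp1* stood at 1.22 to 3.56 and *ark1* at 1.22 to 2.72, both highest in *sgf73*Δ. WT was the lowest array for *mid2*, *slp1* and *ark1* too. *eng1*, *slp1* and *ark1* were among the genes the study selected from these arrays, so that their height on the arrays is no independent evidence. For *eng1*, the study's RT-qPCR also gave levels above WT in the W4C and S4C deletions used here. The study reports no RT-qPCR of *slp1* or *ark1*.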

How the data were processed

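Per the labels, biotin-labelled cRNA was hybridised to Affymetrix Yeast Genome 2.0 arrays, where the study's methods name labelled cDNA. The authors deposited log2 signals of 9 single arrays. MAS5 is named in the submitters' processing notes without its role, with the normalization not given in the sources used here. Of 10928 probe sets, 5518 had 1 gene symbol, 20 several and 5390 none, controls included. Entrez IDs, or symbols where an ID was retired, were matched to RefSeq genes of the assembly ASM294v3, giving 2917 probe sets of 2899 *S. pombe* genes. With several probe sets per gene, 1 was used, by type and then mean signal. No genome or sequence table was given, so that no sequences are shown.

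Signals below background (95th percentile of 2593 *S. cerevisiae* probe sets) were raised to it, and log2 ratios to WT were taken for genes above it in at least 1 of the 2 arrays. Genes named beyond the 36 were those past 2-fold in lists of partner genes, up to 4 per list, with *mid2* and *spn7* added after their values were seen. Medians, counts and ranges were described without tests, and 7 alternatives were run. The members and lists were chosen with earlier results of these data known, and the comparison of pairs of deletions was added after values were seen. The code was tested on simulated data. Python 3.11.15, numpy 2.4.6, pandas 2.3.3 and matplotlib 3.10.9 were used. The number of arrays limits the precision.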

Additional observations from a re-analysis of the deposited data

How the results depend on the processing

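No paired analysis was possible because each genotype had 1 array and no test was made. The alternatives were no floor, a floor at the 99th percentile, median scaling, quantile normalization, a pseudocount of 50 signal units, the mean of all probe sets and each gene's median over the remaining 7 deletions in place of WT. No group median moved by more than 0.10 log2 units under any of the 7, but many medians were themselves no larger, and some changed sign. With median scaling, *SPAC3F10.17*Δ went from 0.039 to -0.036 in the ring and from 0.035 to -0.040 in the septins. The SIN median of *ash2*Δ went from -0.028 to 0.027 with quantile normalization. The count past 1.5-fold moved in few cases. In *ash2*Δ it was 2 with median scaling, 3 with quantile normalization and 0 against the remaining 7 deletions, in place of 1. In *SPAC3F10.17*Δ it was 0 under each of these, in place of 1. In *sgf73*Δ it was 3 with the pseudocount and against the remaining 7, in place of 5. With the pseudocount 3 ratios in all were lower past 1.5-fold, in place of 5. Against the remaining 7 deletions, 7 ratios passed 1.5-fold in place of 11, 2 higher and 5 lower in place of 6 and 5, and 0 passed 2-fold in place of 1. They were *fic1*, *sid4* and *cyk3* in *sgf73*Δ, *cyk3*, *plo1* and *sid2* in *meu29*Δ, and *sid1* in *SPBC2A9.02*Δ. Lost were *cyk3* in *sgf73*Δ and *meu29*Δ and *etd1* in *sgf73*Δ with the pseudocount, *fic1* in *SPAC3F10.17*Δ with either scaling, and *fic1* in *meu29*Δ, *ash2*Δ and *SPAC3F10.17*Δ and *cdc7* and *etd1* in *sgf73*Δ against the remaining 7. No ratio past 1.5-fold changed its sign under an alternative. Signals of *clp1* and *spn6* near background limit their ratios.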
